A study of Mus musculus with 15 samples.

Results

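The 43 genes described here are a set of cell cycle genes given by symbol: cyclins, cyclin-dependent kinases (CDKs) and their inhibitors, replication factors, and the kinases, checkpoint and spindle proteins of mitosis. Each symbol was matched to its Ensembl ID in the deposited count table, and all 43 were found among 56980 IDs. All 43 also passed the filter on low counts, which left 14627 genes to be tested. The rule names the genes by symbol and not by a measured value, but the set was proposed with earlier results of these data known.

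RNA came from livers of wild-type (WT) male C57BL/6J mice that were 15 weeks old when a diet with 10%, 60% or 89.9% fat began and that stayed on it for 9 months. The low-fat diet is called control here, the others high-fat and ketogenic. There were 5 libraries per diet, and control replicate 1 was left out because the submitters report it as contaminated, which leaves 4 control, 5 high-fat and 5 ketogenic libraries. The labels do not say that each library is a separate mouse, so the p-values reflect only how far these samples spread, which may be technical. Only males of a single strain were studied, and no group returned to the control diet.

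A cell that enters the cycle builds D-type cyclins with CDK4 or CDK6, which release E2F factors from the retinoblastoma protein. E2F target genes license and copy the DNA, and a later wave of genes under FOXM1, B-MYB and the DREAM complex drives mitosis. Hepatocytes of the adult liver rarely divide but re-enter the cycle after injury or loss of tissue, and macrophages and other cells of the liver can divide too. RNA of whole liver holds all of these cells, so more cells of a type and more RNA per cell cannot be told apart.

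Total counts ran from 16329425 to 25349148 per library. The 12 hepatocyte markers summed to 168780.0 to 200841 CPM (read counts scaled to a common library size with edgeR's trimmed mean of M-values, TMM) in controls, with 114689 to 151117 on the high-fat and 89529 to 149542 on the ketogenic diet, and no marker of any list was at 0 in all libraries. Of 12 markers of macrophages that derive from monocytes or hold lipid, 3 were higher in high-fat and 4 in ketogenic livers than in controls. The sum of these macrophage markers ran from 58.2 to 79.6 CPM in controls, while the high-fat libraries had 147 to 246 and the ketogenic ones 64.6 to 599. Control replicate 2 stands apart with 1866 CPM of pancreatic acinar markers, where the other controls had 26.1, 68.6 and 189. High-fat libraries had 117 to 827, highest in replicate 1, and ketogenic ones 6.96 to 378, highest in replicate 2. Mitochondrially encoded genes took 3.79% to 5.52% of counts.

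Part of the genes of replication licensing (3 and 4 of 9) and of mitosis (5 and 6 of 18) were higher on the high-fat and the ketogenic diet than on the control diet, and of the genes of entry into the cycle Ccnd1 alone passed the test, on the ketogenic diet. In high-fat livers 8 of 43 genes (18.6%) were higher than in controls and 0 were lower, by edgeR's quasi-likelihood test at a Benjamini-Hochberg adjusted p under 0.05 over all genes tested, where 6.95% of all genes were higher and 5.01% lower. In ketogenic livers 11 genes (25.6%) were higher and 1 (2.33%) was lower, where 7.47% of all genes were higher and 4.60% lower. Scaling by library totals instead of TMM turns the split of calls over all genes from 1016 higher and 733 lower into 1302 and 420 for the high-fat diet, and from 1093 and 673 into 1826 and 368 for the ketogenic diet. Between the fat-rich diets, 0 of the 43 genes passed in either direction, where 0.0615% of all genes did (0.00684% higher and 0.0547% lower on the ketogenic diet). The median log2 fold change of the 43 genes was 0.74 in high-fat and 0.82 in ketogenic livers, beside 0.01 and 0.03 over all genes tested. Both of these comparisons use the same 4 controls. Values that did not overlap the controls were counted too: in high-fat livers 8 genes lay wholly above and 0 wholly below, where 9.45% and 6.79% of all genes did. In ketogenic livers 8 lay wholly above and 0 wholly below, where 7.38% and 5.17% of all genes did. Between the fat-rich diets 0 genes were apart in either direction, where 0.875% of all genes were higher and 0.889% lower.

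Genes past the threshold in both were Mcm2, Mcm4, Mcm5, Ccnb1, Cdc20 and Nusap1. Ccna2 and Aurkb passed in high-fat livers, and Ccnd1, Mcm6, Cdk1, Kif20a, Prc1 and, as the lower gene, Rrm2 passed in ketogenic livers. None of these 8 was past the threshold in the direct test between the fat-rich diets. The number of calls rests on single libraries. In high-fat livers it was 3 without control replicate 3, 4 or 5, 5 without high-fat replicate 2 or 4, 4 without high-fat replicate 3 or 5, and 15 without ketogenic replicate 5. The 7 added then were Mki67, Cdkn2c, Cdk1, Top2a, Kif20a, Prc1 and Birc5, with adjusted p of 0.0171 to 0.0487 in edgeR. In ketogenic livers it was 6 without control replicate 3, 5 without control replicate 4 or 5, 7 without ketogenic replicate 1 or 5, and 16 without ketogenic replicate 4. With control replicate 2, high-fat replicate 1 and ketogenic replicate 5 all left out, a choice made after seeing the data, 19 genes were higher and 2 lower in high-fat livers, and 12 in all passed in ketogenic livers. Mcm4 passed in both comparisons whichever library was left out, as did Mcm5, Ccnd1 and Rrm2 in ketogenic livers.

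**Figure D1:**
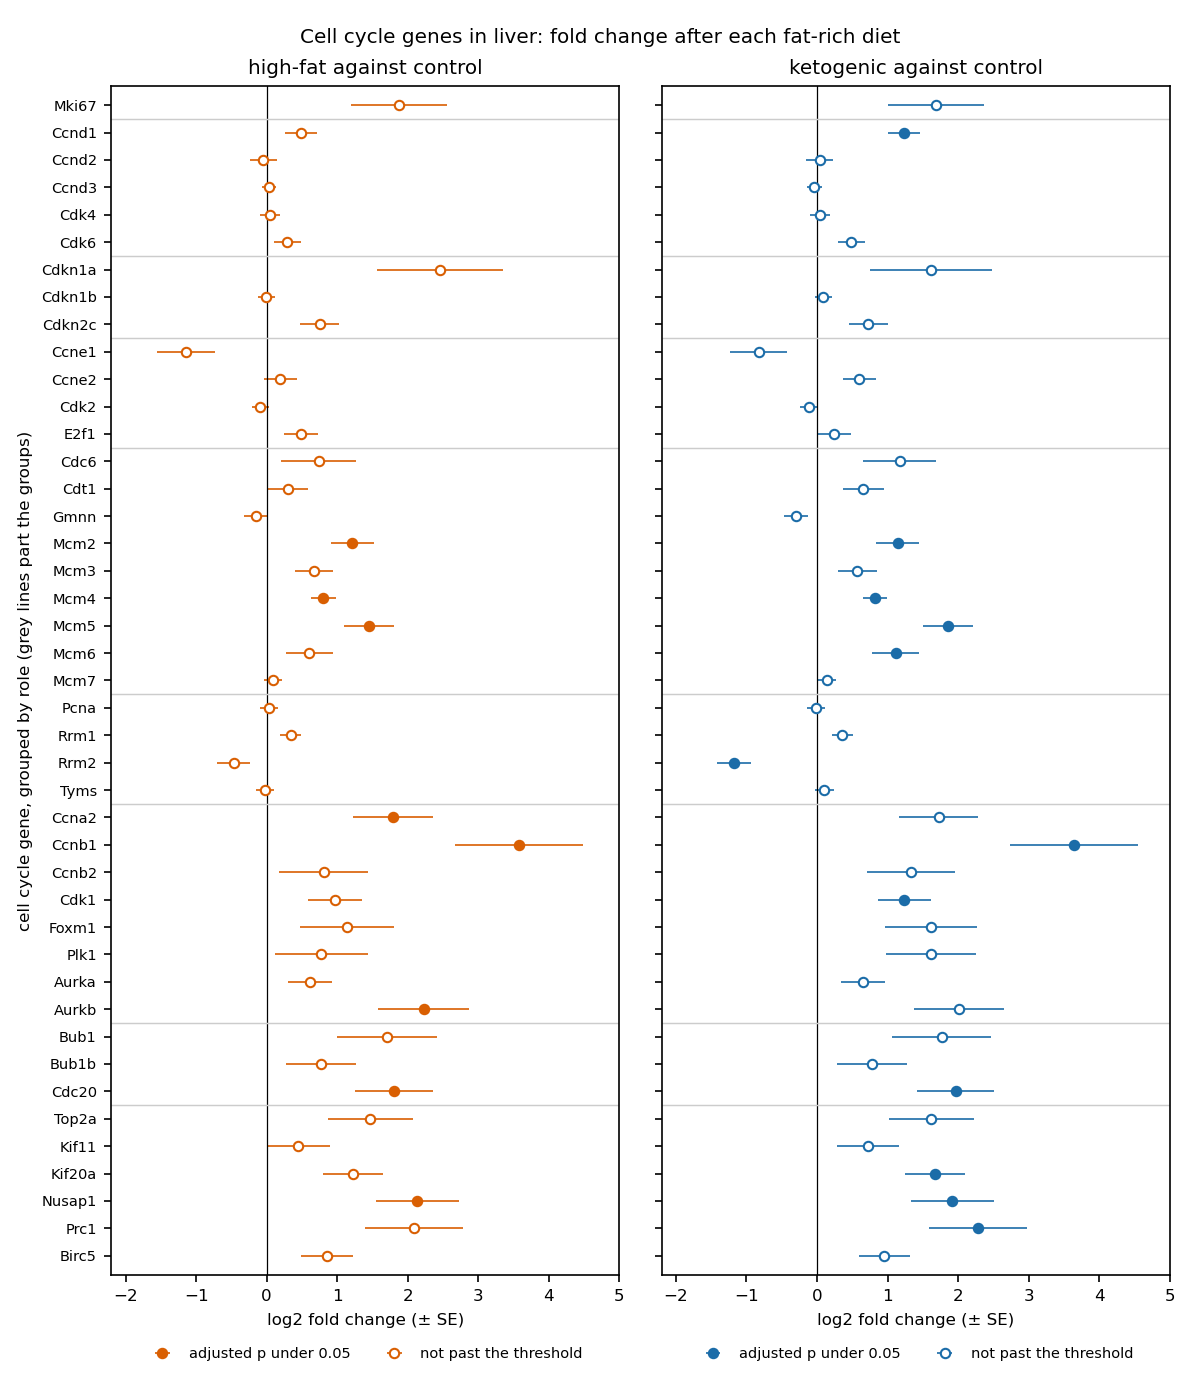
Log2 fold change against control with its SE for the 43 genes, grouped by role, in high-fat (left) and ketogenic (right) livers, with filled points for an adjusted p under 0.05. The largest fold changes are those of Ccnb1, 3.58 and 3.64, and the genes of mitosis all lie to the right of 0.

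Promoter sequence shows the letters that the licensing and mitotic genes carry upstream of their starts. RefSeq windows (build GRCm38.p6) were matched for 34 of the 43 genes, and the 250 bases before the start were searched on both strands for CCAAT, for the cell cycle homology region TTTGAA and for the E2F sites TTTCCCGC or TTTGGCGC. CCAAT was present in 22 of the 34 promoters (64.7%), against 34.5% of all 27025 promoters of that length, and in 12 of 14 promoters of mitotic genes. An E2F site in either of these forms was present in 5 (14.7%), against 1.35% of all, in 4 of 7 licensing genes and in 0 of 14 mitotic genes. Other forms of the E2F site or of TTTGAA were not searched for, so the 0 and the count of TTTGAA hold for the searched forms only. TTTGAA was present in 7 (20.6%), against 16.3% of all, and 6 of these 7 belong to mitotic genes. A match is only a match of letters, and the windows were not tested for binding.

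The 150 bases before the start follow for 3 mitotic genes and 2 licensing genes that passed the test, and for Rrm2, the gene that was lower. Capitals mark the matches, with CCAAT read on the opposite strand as ATTGG and TTTGGCGC as GCGCCAAA.
Ccnb1 (chr13:100786487-100786636, - strand): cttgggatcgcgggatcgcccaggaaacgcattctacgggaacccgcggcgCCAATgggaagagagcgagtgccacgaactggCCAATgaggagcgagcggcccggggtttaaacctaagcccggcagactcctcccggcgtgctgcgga
Cdc20 (chr4:118437344-118437493, - strand): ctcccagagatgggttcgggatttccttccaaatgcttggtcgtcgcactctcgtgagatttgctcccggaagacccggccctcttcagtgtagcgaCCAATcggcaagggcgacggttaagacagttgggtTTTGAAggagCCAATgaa
Cdk1 (chr10:69352913-69353062, - strand): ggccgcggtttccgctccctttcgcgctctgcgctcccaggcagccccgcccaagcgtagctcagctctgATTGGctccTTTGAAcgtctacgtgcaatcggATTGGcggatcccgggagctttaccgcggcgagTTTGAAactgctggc
Mcm5 (chr8:75109359-75109508, + strand): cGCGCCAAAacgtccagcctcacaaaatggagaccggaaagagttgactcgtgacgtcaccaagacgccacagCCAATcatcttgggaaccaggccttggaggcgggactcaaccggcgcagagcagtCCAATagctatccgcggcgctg
Mcm6 (chr1:128359706-128359855, - strand): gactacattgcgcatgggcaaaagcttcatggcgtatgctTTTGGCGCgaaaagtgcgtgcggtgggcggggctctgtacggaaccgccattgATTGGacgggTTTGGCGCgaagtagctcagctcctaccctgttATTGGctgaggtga
Rrm2 (chr12:24708104-24708253, + strand): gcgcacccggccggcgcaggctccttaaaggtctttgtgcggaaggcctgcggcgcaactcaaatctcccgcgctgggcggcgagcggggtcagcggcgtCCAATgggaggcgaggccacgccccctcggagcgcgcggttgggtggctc
The Mcm5 and Mcm6 stretches hold CCAAT and an E2F site, and the Cdc20 and Cdk1 stretches hold CCAAT and TTTGAA. The Cdk1 stretch also holds tttcgcgc, a related form of the E2F site that was not searched for. Of the letters searched for, the Ccnb1 and Rrm2 stretches hold CCAAT alone. Close letters are there too: tttaaa in Ccnb1 and tctcccgc in Rrm2 each differ in a single letter from a searched form. Ccnb1 was the gene that rose most, and Rrm2 was the gene that fell.

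**Figure D2:**
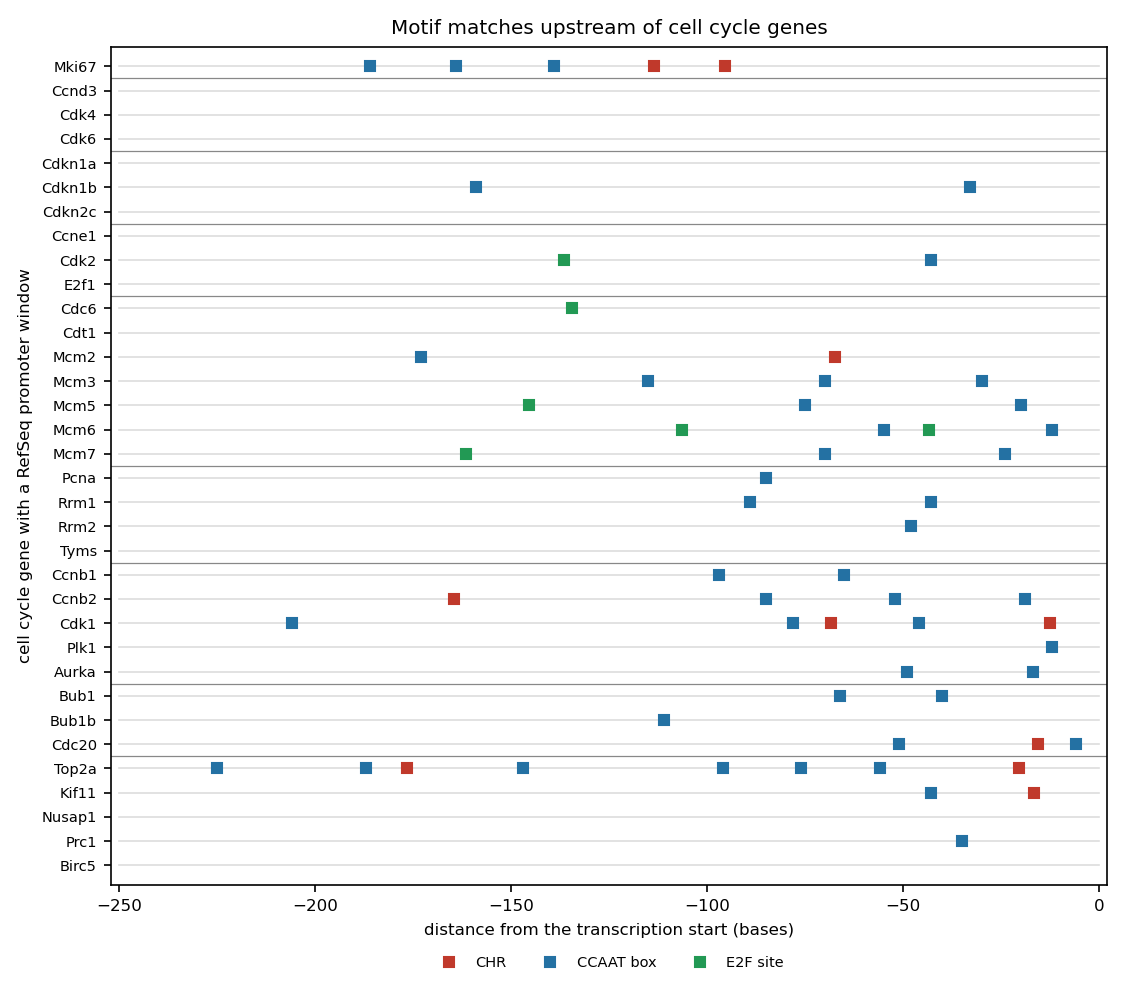
Matches of the 3 motifs by distance from the transcription start, in bases, for the cell cycle genes with a RefSeq promoter window. CCAAT is spread over 22 of the 34 promoters, and an E2F site in the searched forms is found in 5.

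Of the 5 genes of the G1 cyclins and their kinases, 0 passed in high-fat and 1 rose in ketogenic livers. That gene was Ccnd1, which encodes cyclin D1, the cyclin that couples growth signals to CDK4 and CDK6. Ccnd1 measured 20.1, 21.5, 13.6 and 19.9 CPM in the controls, 20.6, 31.0, 25.8, 23.5 and 30.3 in the high-fat and 62.0, 51.2, 26.3, 31.6 and 49.7 in the ketogenic libraries. Each ketogenic library was above each control, while high-fat replicate 1 lay among the controls. The log2 fold change was 1.23 ± 0.23 (SE, edgeR adjusted p = 0.00246) in ketogenic and 0.48 ± 0.23 (adjusted p = 0.181) in high-fat livers. Taken directly, ketogenic against high-fat gave 0.75 ± 0.21 (edgeR adjusted p = 0.219), with a 95% interval of 0.31 to 1.20. Below, a pair of log2 fold changes gives high-fat first and ketogenic second, each against control, with its SE.

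The other G1 genes did not pass. Ccnd3, the D-type cyclin with the highest mean CPM of them, measured 34.0, 31.0, 34.8 and 31.2 CPM in controls, 32.4, 31.2, 35.4, 30.2 and 38.4 in high-fat and 29.8, 35.3, 35.4, 31.9 and 26.8 in ketogenic libraries, and the groups overlap. Cdk4, the kinase partner of the D cyclins, had a log2 fold change of 0.05 ± 0.14 and 0.04 ± 0.14. Per kilobase of exon, Cdk4 was the most abundant of these genes in controls at 8.62 CPM per kb, and Ccnd2 the least at 1.20.

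None of the 3 CDK inhibitors passed the threshold in either comparison, but Cdkn1a passed in high-fat livers in DESeq2 (adjusted p = 0.0232). Cdkn1a, which encodes p21 and is a target of p53, had the widest spread, with 8.43, 0.713, 5.63 and 14.5 CPM in controls, 10.6, 44.4, 14.7, 19.03 and 111 in high-fat and 18.5, 21.3, 12.2, 10.1 and 49.5 in ketogenic libraries. High-fat replicate 5 and ketogenic replicate 5 were the highest of their diets, and each diet overlaps the controls. The log2 fold change was 2.46 ± 0.89 (edgeR adjusted p = 0.0941) in high-fat and 1.62 ± 0.86 (adjusted p = 0.247) in ketogenic livers. Without high-fat replicate 5 the high-fat value was 1.603, and without ketogenic replicate 5 the ketogenic value was 1.077. Cdkn1b, which encodes p27, measured 19.1, 18.5, 20.7 and 22.2 CPM in controls, 17.9, 22.7, 21.3, 19.3 and 19.1 in high-fat and 24.4, 17.1, 19.9, 20.8 and 24.8 in ketogenic libraries, and these overlap. Cdkn2c, which encodes p18, did not overlap the controls in high-fat livers, at 5.37 ± 0.967 (SD, n = 5) against 3.19 ± 0.918 CPM (SD, n = 4), but had an adjusted p of 0.0935 in edgeR's test. It passed in high-fat livers without ketogenic replicate 5 (0.0361) and in ketogenic livers without ketogenic replicate 4 (0.0438).

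At the step from G1 to S phase, 0 of 4 genes passed on either diet. Cdk2, the kinase of the E and A cyclins, measured 10.2, 9.88, 11.4 and 12.7 CPM in controls, 9.31, 9.95, 11.6, 9.60 and 11.5 in high-fat and 10.3, 9.37, 9.55, 9.65 and 12.01 in ketogenic libraries. The groups overlap. Ccne1 and Ccne2, which encode the E cyclins, had log2 fold changes of opposite sign: -1.14 ± 0.41 and -0.83 ± 0.40 for Ccne1, 0.19 ± 0.24 and 0.60 ± 0.23 for Ccne2. Ccne1 passed as lower in high-fat livers without control replicate 2 (edgeR adjusted p = 0.0235). E2f1, a transcription factor of S phase genes, had 0.49 ± 0.24 and 0.24 ± 0.24.

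Of 9 genes of replication licensing, 3 rose in high-fat (33.3%) and 4 in ketogenic livers (44.4%), and 0 fell. Of all genes, 6.95% and 7.47% rose. The licensing genes that rose encode subunits of the MCM helicase, which is loaded on DNA in G1 and unwinds it in S phase. Mcm5 measured 1.24, 1.53, 1.33 and 2.06 CPM in controls, 2.95, 4.44, 5.17, 3.56 and 4.92 in high-fat and 9.38, 4.20, 3.06, 3.08 and 8.09 in ketogenic libraries. Each library of either fat-rich diet was above each control, and ketogenic replicates 1 and 5 were the highest. Its log2 fold change was 1.45 ± 0.35 (edgeR adjusted p = 0.0145) and 1.86 ± 0.35 (adjusted p = 0.00273). Without control replicate 4 the high-fat value had an adjusted p of 0.0534.

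Mcm2 measured 2.32, 1.73, 2.41 and 2.34 CPM in controls, 3.29, 4.86, 7.57, 4.49 and 5.27 in high-fat and 7.34, 4.64, 3.06, 2.76 and 6.48 in ketogenic libraries. Its groups do not overlap the controls either, and the log2 fold change was 1.21 ± 0.31 (edgeR adjusted p = 0.0178) and 1.15 ± 0.30 (adjusted p = 0.0222). Without control replicate 3 the high-fat call was lost (adjusted p = 0.0601), and the ketogenic call was lost without control replicate 3, 4 or 5 or ketogenic replicate 1 (0.0537 to 0.074). Mcm4 measured 3.68, 3.41, 2.61 and 3.60 CPM in controls, 5.03, 5.87, 5.97, 6.64 and 5.52 in high-fat and 7.26, 6.28, 4.80, 4.59 and 6.44 in ketogenic libraries. Its rise was smaller but its spread narrower: 0.81 ± 0.17 (adjusted p = 0.00736) and 0.82 ± 0.17 (adjusted p = 0.00573), with no overlap with the controls.

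Mcm6 measured 5.20, 5.45, 3.64 and 3.43 CPM in controls, 4.34, 7.17, 7.42, 7.65 and 7.11 in high-fat and 13.4, 7.58, 5.57, 4.73 and 16.6 in ketogenic libraries. Ketogenic replicates 1 and 5 were highest, and ketogenic replicate 4 lay among the controls. It rose in ketogenic livers, by 1.12 ± 0.33 (edgeR adjusted p = 0.0401), with the call lost when any of 10 libraries was left out (0.0505 to 0.119). Its value in high-fat livers was 0.61 ± 0.33 (adjusted p = 0.256).

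The other helicase subunits, Mcm7 and Mcm3, did not pass. Mcm7 measured 12.95, 12.9, 13.1 and 12.2 CPM in controls, 10.5, 13.2, 13.9, 13.8 and 16.6 in high-fat and 14.4, 14.3, 13.4, 11.9 and 16.2 in ketogenic libraries, which overlap, and its log2 fold change was 0.09 ± 0.13 and 0.14 ± 0.13. Mcm3 had 0.67 ± 0.27 and 0.57 ± 0.27. The loading factors Cdc6 and Cdt1 and the Cdt1 inhibitor geminin, Gmnn, did not pass. Cdc6 had 0.74 ± 0.53 and 1.17 ± 0.52, Cdt1 0.30 ± 0.29 and 0.65 ± 0.29, and Gmnn -0.15 ± 0.17 and -0.30 ± 0.17. Gmnn was the most abundant licensing gene per kilobase in controls at 4.76 CPM per kb.

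Of 4 genes of DNA synthesis and nucleotide supply, 0 passed in high-fat livers and 1 fell in ketogenic livers. That gene was Rrm2, the small subunit of ribonucleotide reductase, which makes deoxyribonucleotides and is usually made in S phase. Rrm2 measured 14.1, 19.7, 22.2 and 24.4 CPM in controls, 17.6, 16.7, 14.5, 11.4 and 12.5 in high-fat and 9.72, 7.34, 7.15, 5.605 and 14.6 in ketogenic libraries. Of the ketogenic libraries only replicate 5 reached the range of the controls, and the high-fat libraries overlap the controls. The log2 fold change was -1.17 ± 0.24 (edgeR adjusted p = 0.00464) in ketogenic and -0.47 ± 0.24 (adjusted p = 0.215) in high-fat livers.

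Ketogenic against high-fat gave -0.70 ± 0.23 for Rrm2 (edgeR adjusted p = 0.308), with a 95% interval of -1.19 to -0.22. Without ketogenic replicate 5 this became -0.96 with an adjusted p of 0.0139, the only call of a member in that comparison when a library was left out. In that setting 315 of all genes differed between the fat-rich diets, where 9 differed with all libraries. Rrm1, the large subunit, had 0.34 ± 0.15 and 0.36 ± 0.15 and did not pass. In controls Rrm2 had a mean of 20.1 CPM and Rrm1 of 10.2. Per kilobase these were 7.25 and 0.925 CPM per kb. That gap depends on exon lengths of 2771 and 11012 bases, which join the exons of all annotated transcripts. Pcna, the sliding clamp of the DNA polymerases and the most abundant of the 43 genes per kilobase at 11.7 CPM per kb, measured 31.4, 26.7, 26.3 and 28.3 CPM in controls, 28.6, 28.2, 26.6, 27.6 and 32.8 in high-fat and 26.4, 27.3, 29.8, 20.6 and 34.8 in ketogenic libraries. Its groups overlap.

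The 18 genes of mitosis (Mki67 with the G2/M, checkpoint and spindle genes) were scarce in controls. In controls they ran from 0.0195 (Ccnb1) to 0.326 (Aurka) CPM per kb. In high-fat livers 5 rose (27.8%) and in ketogenic livers 6 rose (33.3%), with 0 lower in either, where 6.95% and 7.47% of all genes were higher. All 18 had a log2 fold change above 0 on both diets, with medians of 1.35 and 1.65. Some, such as Ccnb1, Plk1, Bub1 and Nusap1, had fewer than 10 reads in each control and passed the filter through the fat-rich libraries alone. Genes that pass in that way lean to values above 0. With no low-count filter all 18 were above 0 too, with medians of 1.34 and 1.63. Without ketogenic replicate 5 the ketogenic median was 0.96 over 17 tested genes, all above 0, beside 1.20 in high-fat livers. The number of mitotic genes that rose depends on single libraries. In high-fat livers it was 0 without control replicate 5, 1 without control replicate 3 or 4 or high-fat replicate 3 or 5, 2 without high-fat replicate 2 or 4, 3 without ketogenic replicate 1 or 2, 9 without high-fat replicate 1 and 11 without ketogenic replicate 5. In ketogenic livers it was 1 without control replicate 3, 4 or 5, 2 without ketogenic replicate 5, and 3 without high-fat replicate 4 or ketogenic replicate 1 or 2. It was 8 without high-fat replicate 1 and 9 without ketogenic replicate 3 or 4. Their summed level was 14.6, 9.82, 12.04 and 10.8 CPM in controls, 12.3, 37.2, 49.6, 19.8 and 36.1 in high-fat, and 32.9, 26.6, 15.1, 14.7 and 74.4 in ketogenic libraries. High-fat replicate 1 lay within the control range, ketogenic replicates 3 and 4 just above it, and ketogenic replicate 5 was the highest of all.

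The same library was high across the group: ketogenic replicate 5 was the highest of its diet in 18 of 18 mitotic genes and in 32 of all 43. High-fat replicate 1 was the lowest of its diet in 16 of 18, and 12 of its 18 values lay within the control range. Ketogenic replicate 5 also had 599 CPM of the macrophage markers above, 1071 CPM of Kupffer cell markers against 355 to 477 in the other ketogenic libraries, and 23.9 CPM of T and NK cell markers against 4.20 to 6.95. It was also the highest ketogenic library for cholangiocyte markers, at 223 CPM against 53.8 to 78.2. Spp1 is in the cholangiocyte list and in the macrophage list, so those sums share its reads, and 0 of 7 tested cholangiocyte markers passed on either diet. For stellate cell and fibroblast markers ketogenic replicate 5 was again the highest of its diet, at 743 CPM against 339 to 469. From that last list, 3 and 4 of 10 genes passed as higher on the high-fat and ketogenic diets (30.0% and 40.0%). Of all genes tested, 6.95% and 7.47% did. The hepatocyte marker sum of ketogenic replicate 5, 89529 CPM, was the lowest of the 14. The part of these cells in the mitotic signal was not tested. The median coefficient of variation of the mitotic genes was 38.4% in controls, 48.2% in high-fat and 70.0% in ketogenic libraries.

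**Figure D3:**
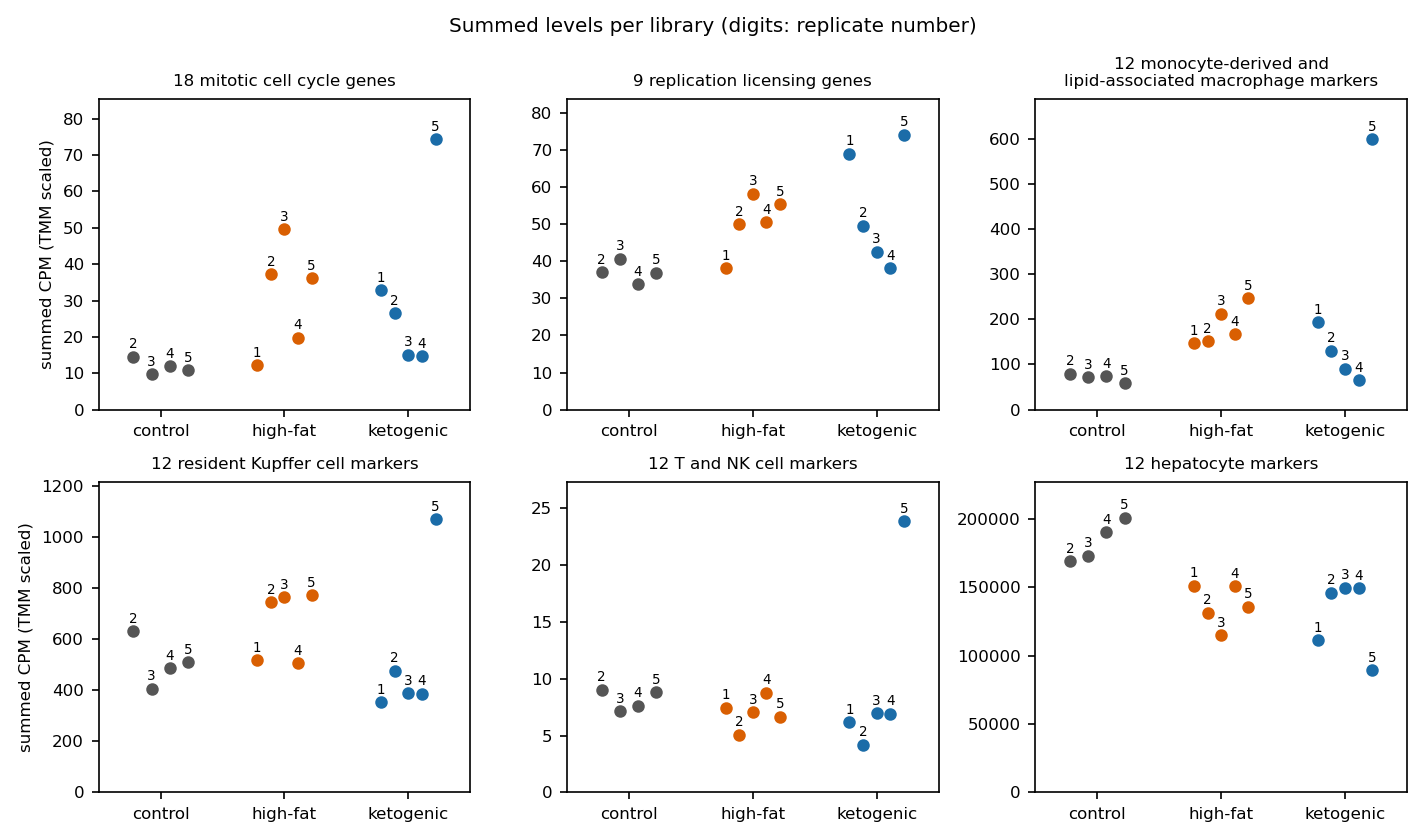
Summed CPM per library by diet, with digits for the replicate number, for mitotic genes, licensing genes and markers of macrophages, Kupffer cells, T and NK cells and hepatocytes. Ketogenic replicate 5 is the highest library for the mitotic genes at 74.4 CPM and high-fat replicate 1 the lowest of the fat-rich libraries at 12.3.

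Of 8 genes of the G2/M cyclins, their kinases and FOXM1, 3 rose in high-fat and 2 in ketogenic livers. Ccnb1 encodes cyclin B1, which activates CDK1 for entry into mitosis, and had the largest change of the 43 genes. Its counts were 3, 1, 1 and 1 in the controls, so that its fold change rests on a total of 6 control reads. Ccnb1 measured 0.170, 0.0509, 0.0512 and 0.0571 CPM in controls, 0.173, 1.66, 1.32, 0.688 and 1.34 in high-fat and 0.721, 0.966, 0.306, 0.276 and 3.04 in ketogenic libraries. No library of a fat-rich diet overlaps the controls, but high-fat replicate 1 lies just above control replicate 2. Both have 3 reads, so only the scaling sets them apart. The log2 fold change was 3.58 ± 0.91 (edgeR adjusted p = 0.019) and 3.64 ± 0.90 (adjusted p = 0.0156). Without control replicate 3, 4 or 5 both calls were lost, at 0.0554 to 0.0657 and 0.0508 to 0.0563. Without ketogenic replicate 5 the ketogenic value was 2.71.

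Cdk1, the kinase of mitotic entry, measured 0.962, 0.916, 0.922 and 0.685 CPM in controls, 0.751, 2.13, 2.16, 1.21 and 2.29 in high-fat and 2.08, 1.69, 1.43, 1.29 and 3.77 in ketogenic libraries. Each ketogenic library was above each control, and high-fat replicate 1 was among the controls. It rose in ketogenic livers by 1.24 ± 0.38 (edgeR adjusted p = 0.0444), with the call lost when any of 10 libraries was left out (0.0526 to 0.123). In high-fat livers it was 0.97 ± 0.38 (adjusted p = 0.112).

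Ccna2, cyclin A2 of S phase and G2, measured 1.07, 0.509, 0.410 and 0.285 CPM in controls, 0.751, 2.07, 2.73, 1.46 and 2.88 in high-fat and 2.12, 1.497, 0.562, 1.103 and 4.06 in ketogenic libraries. Control replicate 2 was the highest control, and it overlaps high-fat replicate 1 and ketogenic replicate 3. It rose in high-fat livers by 1.79 ± 0.56 (edgeR adjusted p = 0.0496), with the call lost when any of 10 libraries was left out (0.051 to 0.137), and was 1.72 ± 0.56 (adjusted p = 0.0576) in ketogenic livers. Aurkb, the aurora kinase of chromosome attachment, measured 0.226, 0.102, 0.512 and 0.0571 CPM in controls, 0.347, 0.948, 1.69, 0.850 and 1.54 in high-fat and 1.15, 0.725, 0.511, 0.368 and 1.87 in ketogenic libraries. Control replicate 4 was the highest control and overlaps high-fat replicate 1 and ketogenic replicates 3 and 4. Aurkb rose in high-fat livers by 2.22 ± 0.64 (edgeR adjusted p = 0.0344), and the call was lost when any of 7 libraries was left out (0.0531 to 0.101). Without control replicate 4 the value was 3.02. In ketogenic livers it was 2.02 ± 0.64 (adjusted p = 0.0518), and 2.81 (0.0323) without control replicate 4.

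The other 4 genes of this group did not pass. Aurka, the aurora kinase of spindle poles and the one of them with the highest mean CPM, measured 1.13, 0.509, 0.922 and 0.742 CPM in controls, 0.867, 1.48, 1.27, 0.972 and 1.74 in high-fat and 1.40, 1.497, 0.970, 0.873 and 1.72 in ketogenic libraries, which overlap. Foxm1, the transcription factor of mitotic genes, had a log2 fold change of 1.14 ± 0.67 (edgeR adjusted p = 0.285) and 1.62 ± 0.66 (adjusted p = 0.121), and the ketogenic value was 0.87 without ketogenic replicate 5. Plk1, a kinase of mitotic entry and spindle assembly, had 0.77 ± 0.66 and 1.62 ± 0.64, and Ccnb2, cyclin B2, 0.81 ± 0.63 and 1.33 ± 0.62. Control replicate 2 had 1.357 CPM of Ccnb2, and without it Ccnb2 passed on both diets, at 2.28 (edgeR adjusted p = 0.0209) and 2.80 (adjusted p = 0.00543). Mki67, the antigen of cycling cells used in pathology, measured 1.47, 1.88, 2.61 and 1.88 CPM in controls, 2.20, 7.64, 16.4, 3.68 and 6.17 in high-fat and 7.002, 4.44, 1.69, 2.39 and 16.04 in ketogenic libraries. High-fat replicate 3 and ketogenic replicate 5 were the highest, and both diets overlap the controls: 1.88 ± 0.68 (adjusted p = 0.0902) and 1.69 ± 0.68 (adjusted p = 0.123). Without ketogenic replicate 5 the ketogenic value was 0.96, and the high-fat comparison passed (adjusted p = 0.0383), as it did without high-fat replicate 1 (0.0487).

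Of 3 genes of the spindle checkpoint and anaphase, 1 rose on each diet (33.3%), where 6.95% and 7.47% of all genes were higher. A count of 1 in 3 says little about the group. Cdc20, which activates the anaphase-promoting complex, measured 0.622, 0.153, 0.307 and 0.343 CPM in controls, 0.405, 1.96, 1.598, 0.850 and 1.44 in high-fat and 1.32, 1.45, 1.23, 0.413 and 2.53 in ketogenic libraries. High-fat replicate 1 and ketogenic replicate 4 lay among the controls. Its log2 fold change was 1.80 ± 0.55 (edgeR adjusted p = 0.0446) and 1.96 ± 0.55 (adjusted p = 0.0283), with the high-fat call lost when any of 9 libraries was left out (0.0543 to 0.126) and the ketogenic call when control replicate 3, 4 or 5 or ketogenic replicate 5 was (0.0562 to 0.0913). Bub1b, the checkpoint protein BubR1, measured 0.962, 0.764, 0.512 and 0.685 CPM in controls, 0.520, 1.78, 1.363, 0.891 and 1.69 in high-fat and 1.02, 0.725, 0.766, 0.597 and 3.08 in ketogenic libraries, which overlap. Its ketogenic log2 fold change was 0.78 ± 0.50, and 0.08 without ketogenic replicate 5. Bub1, the checkpoint kinase, had 1.70 ± 0.71 and 1.76 ± 0.70 and did not pass.

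Of 6 genes of chromosomes, spindle and cytokinesis, 1 rose in high-fat and 3 in ketogenic livers. Nusap1, a protein that binds spindle microtubules, measured 0.113, 0.458, 0.256 and 0.228 CPM in controls, 0.867, 1.07, 1.69, 0.688 and 1.64 in high-fat and 0.764, 1.30, 0.255, 0.505 and 2.23 in ketogenic libraries. The high-fat libraries were all above the controls, and ketogenic replicate 3 lay among the controls. It rose by 2.13 ± 0.59 (edgeR adjusted p = 0.0284) and 1.92 ± 0.59 (adjusted p = 0.0446), with the calls lost when any of 5 and of 11 libraries was left out (0.0621 to 0.0823 and 0.0509 to 0.112).

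Kif20a, a kinesin of cytokinesis, measured 0.566, 0.560, 0.563 and 0.571 CPM in controls, 0.694, 1.42, 1.69, 0.931 and 1.89 in high-fat and 1.70, 1.45, 1.02, 1.06 and 3.77 in ketogenic libraries. Neither diet overlaps the controls, whose 4 values are close together. These rest on 10, 11, 11 and 10 reads, and high-fat replicate 1 on 12. At so few reads neither the closeness nor the gap to that library can be relied on. Kif20a rose in ketogenic livers by 1.67 ± 0.42 (edgeR adjusted p = 0.017), lost without control replicate 4 (0.0528), and was 1.22 ± 0.43 (adjusted p = 0.0738) in high-fat livers. Prc1, which bundles microtubules between the parting chromosomes, measured 0.566, 0.204, 0.307 and 0.285 CPM in controls, 0.405, 2.25, 2.40, 0.810 and 1.44 in high-fat and 1.44, 1.497, 0.562, 0.459 and 4.25 in ketogenic libraries. Ketogenic replicate 5 was the highest, and ketogenic replicates 3 and 4 and high-fat replicate 1 were below control replicate 2. It rose in ketogenic livers by 2.28 ± 0.69 (edgeR adjusted p = 0.0431), lost when any of 8 libraries was left out (0.0503 to 0.116), with a value of 1.52 without ketogenic replicate 5.

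Top2a, the topoisomerase that untangles chromosomes, measured 1.64, 1.02, 1.54 and 1.66 CPM in controls, 1.33, 5.69, 5.78, 2.43 and 5.02 in high-fat and 4.92, 2.61, 1.28, 1.93 and 11.5 in ketogenic libraries. High-fat replicate 1 and ketogenic replicate 3 lay among the controls, and the log2 fold change was 1.47 ± 0.60 (edgeR adjusted p = 0.13) and 1.62 ± 0.60 (adjusted p = 0.0948). Without ketogenic replicate 5 the ketogenic value was 0.87 and the high-fat comparison passed (adjusted p = 0.0348), and without ketogenic replicate 3 the ketogenic comparison passed (0.0419). Birc5, survivin of the chromosome passenger complex, did not overlap the controls in high-fat livers, at 1.61 ± 0.486 (SD, n = 5) against 0.890 ± 0.0878 CPM (SD, n = 4), with 0.85 ± 0.37 (adjusted p = 0.143). Kif11, the kinesin that parts the spindle poles, had 0.45 ± 0.45 and 0.72 ± 0.44 and did not pass.

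**Figure D4:**
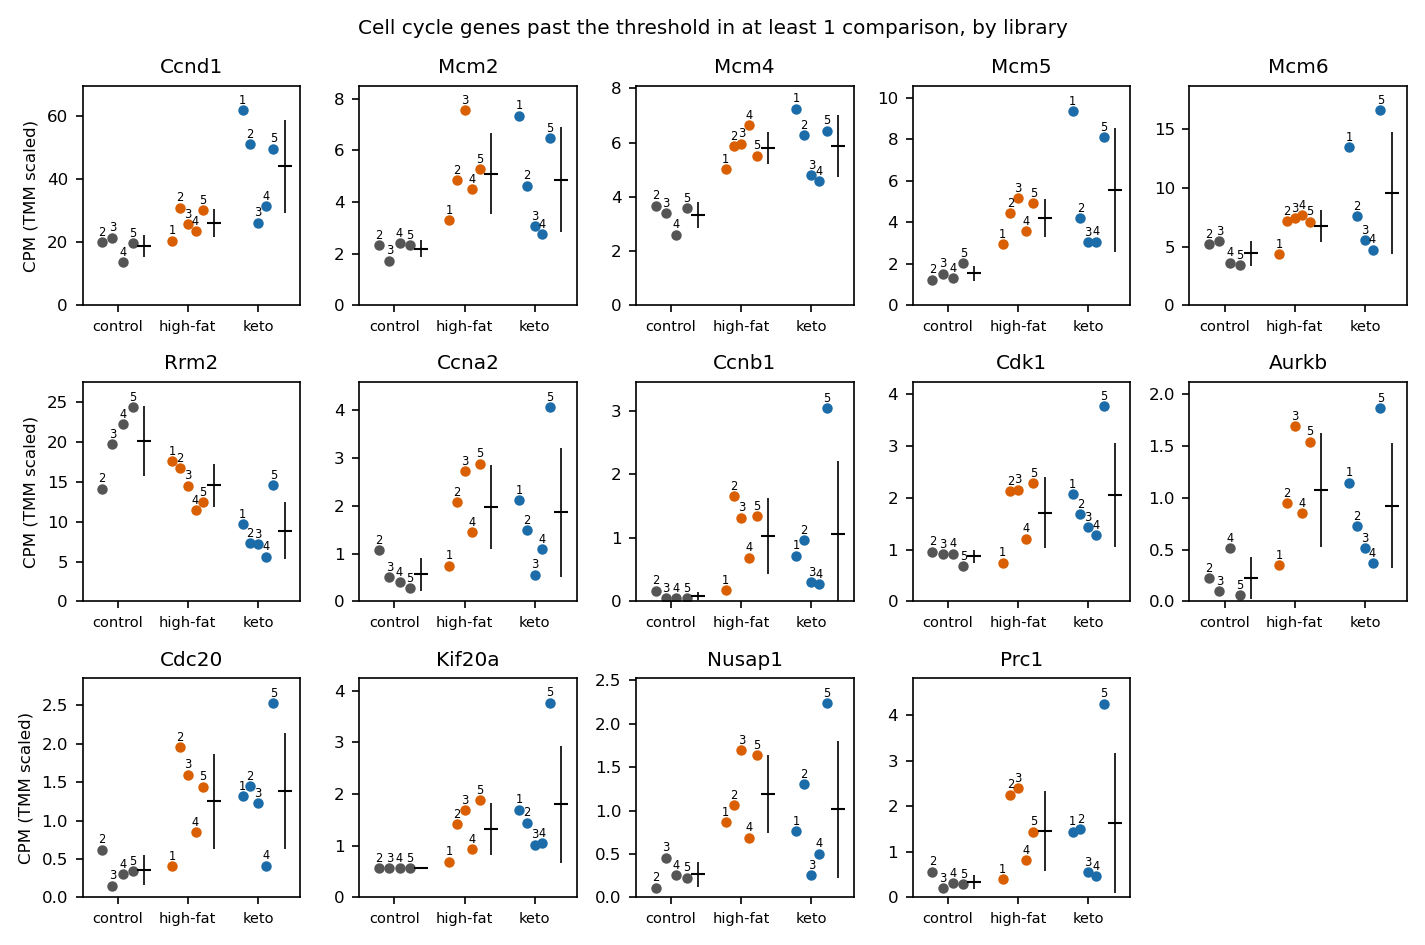
CPM of the 14 genes past the threshold in at least 1 comparison, 1 point per library, by diet. The ketogenic libraries of Rrm2 lie mostly below the controls, and those of the other genes mostly above.

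Between the fat-rich diets 0 of 43 genes passed in edgeR and 0 in DESeq2, and 2 genes, Ccnd1 and Rrm2, had an unadjusted p under 0.05 in edgeR. The log2 fold changes ran from -0.84 ± 0.76 for Cdkn1a to 0.84 ± 0.55 for Plk1. For Ccnb1 the interval was -1.22 to 1.35 and for Mcm5 -0.24 to 1.05, so true differences within these bounds are not excluded. These intervals are not adjusted for the number of genes tested. Some signs between these diets changed with 1 library left out. Without ketogenic replicate 5, Ccnb1 was -0.85 in place of 0.06 ± 0.60, Mki67 -0.89, Top2a -0.58, and the median of the mitotic genes -0.32 in place of 0.13, with none of these genes past the threshold. That median was -0.06 without high-fat replicate 1 and -0.01 without high-fat replicate 4. Without high-fat replicate 5, Cdkn1a was 0.02.

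Other genes of the cycle were taken from lists of the same pathways, and their shares are set beside the 6.95% and 7.47% of all genes that were higher. Of 52 tested other genes of mitosis, 5 rose (9.62%) and 1 fell in high-fat and 6 rose (11.5%) in ketogenic livers, with median log2 fold changes of 0.89 and 0.90. Cenpm, a centromere protein, rose by 3.24 ± 0.46 (edgeR adjusted p = 0.000471) and 3.81 ± 0.46 (adjusted p = 9.83e-05), from 0.189 ± 0.0729 to 1.83 ± 0.440 and 2.73 ± 1.38 CPM (SD, edgeR fit with n = 4, 5 and 5). Nuf2, of the outer kinetochore, rose by 2.12 ± 0.59 and 2.02 ± 0.59, and H2ax, a histone variant, fell in high-fat livers (-0.62 ± 0.16). Of 43 other replication factors 2 rose on each diet (4.65%, below the share of all genes; medians 0.15 and 0.17), with Chaf1a, a chromatin assembly factor, at 1.54 ± 0.34 and 1.37 ± 0.34.

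Of 17 E2F, RB and DREAM factors, 2 rose (11.8%) and 1 fell in high-fat and 2 rose (11.8%) in ketogenic livers (medians -0.02 and 0.10). E2f8, an atypical E2F that represses, rose by 1.98 ± 0.37 (edgeR adjusted p = 0.00324) and 2.11 ± 0.37 (adjusted p = 0.00168), and Mybl1, a MYB factor, by 2.76 ± 0.82 and 3.07 ± 0.81. E2f4, an E2F of the DREAM complex, fell in high-fat livers (-0.32 ± 0.09). Of 19 other CDKs, cyclins and inhibitors, 2 rose in high-fat (10.5%) and 1 in ketogenic livers (5.26%; medians 0.05 and 0.07), and Ccng2, an atypical cyclin linked to cell cycle arrest, rose on both (1.89 ± 0.39 and 1.35 ± 0.38). Of 20 p53 target genes, 4 rose in high-fat livers, and 1 rose (5.00%) and 1 fell in ketogenic livers (medians 0.30 and 0.28). Eda2r, a death domain receptor, rose by 2.01 ± 0.61 in high-fat livers, and Gadd45a, a stress protein that slows the cycle, fell in ketogenic livers (-1.28 ± 0.34). None of these lists had a gene past the threshold between the fat-rich diets.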

How the data were processed

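The deposited table holds raw read counts (whole numbers) for each Ensembl gene ID in each library. Per the submitters' processing notes, the tools were STAR 2.7.9a, featureCounts 1.6, cutadapt 1.16 and DESeq2 1.36.0, and the mouse build was GRCm39. Poly(A) RNA and a strand-keeping kit were used, per the labels' protocols. The counted annotation release, strand setting and rule for ambiguous reads were not given in the sources used here; overlapping and antisense genes are therefore uncertain.

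Analysis used edgeR 4.0.16 under R 4.3.3. After filterByExpr (at least 10 counts, at least 15 in total) and TMM scaling (factors of 0.886 to 1.215), a single model over the 14 libraries was fitted (estimateDisp, glmQLFit with robust estimation) and each contrast tested two-sided with glmQLFTest, with Benjamini-Hochberg adjustment over 14627 genes and a threshold of 0.05. The scripts were tested on simulated data. The SE is the absolute log2 fold change divided by the square root of F, and 95% intervals use the t distribution. Symbols and exon lengths came from a GRCm38 annotation and were used for names and for CPM per kb only. The length of a gene joins the exons of all its annotated transcripts, so the order of genes by CPM per kb depends on the annotation. Of the tested IDs, 98.17% had a symbol. Where several promoter windows were given, the first listed was taken. Alternatives were DESeq2 1.42.0, other scalings and filters, a replicate block, fits on 2 diets and leaving out each library. The members and lists were chosen with earlier results of these data known. Values per library are printed for each member past the threshold in at least 1 comparison and for the member with the highest mean CPM among those that passed in none, per role, with a few members fixed by name. From each other list up to 4 genes with the smallest adjusted p were eligible, and part of these are printed. 2 genes of the 343 listed were not found.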

Additional observations from a re-analysis of the deposited data

Results flagged for a closer look

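In 15 of 129 groups (43 genes in 3 diets) the highest or lowest library lay apart from the rest of its group by Dixon's test at its 95% critical value. For independent values with a normal spread, about 1 in 20 groups would be flagged. These groups share their libraries and many hold few reads, so 15 of 129 cannot be set against that rate. Of these, 7 are ketogenic replicate 5, as the highest of its diet: Cdkn1a at 49.5 CPM, Ccnb1 at 3.04, Bub1 at 1.46, Bub1b at 3.08, Kif20a at 3.77, Prc1 at 4.25 and Birc5 at 3.44. Control replicate 2, which also has 1866 CPM of pancreatic acinar and 121 CPM of neutrophil markers, was the highest control for Ccnb1 at 0.170 CPM and for Ccnb2 at 1.357. Control replicate 3 was the highest control for Ccnd2 at 14.6 CPM and the lowest for Mcm2 at 1.73.

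Control replicate 5 was the lowest control for Mcm7 at 12.2 CPM and for Cdk1 at 0.685. High-fat replicate 1 was the lowest of its diet for Mcm6 at 4.34 CPM, and ketogenic replicate 1 for Tyms, thymidylate synthase, at 5.81. The causes were not tested.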

How the results depend on the processing

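None of the 8 high-fat and 12 ketogenic calls changed sign under the 24 alternatives, as far as they were tested in each. Of the genes not past the threshold, 7 of 35 in high-fat and 5 of 31 in ketogenic livers changed sign under at least 1 alternative, as did 29 of 43 between the fat-rich diets, and 0 of these passed the threshold with the changed sign. For the 14 genes past the threshold and Mki67, Top2a and Cdkn1a, each against control, 660 recomputed values stayed on their side of the threshold, 111 lost and 43 gained the call. In high-fat livers the 8 calls became 14 with DESeq2 (13 higher, 1 lower) and 14 in a fit on those 2 diets alone, and 3 to 15 with 1 library left out. In ketogenic livers the 12 calls became 7 in a fit on those 2 diets alone, and 5 to 16 with 1 library left out. Ccnb1 failed the low-count filter in that fit on 2 diets and was not tested there. Between the fat-rich diets the 0 calls became 0 to 1. Without control replicate 2, high-fat replicate 1 and ketogenic replicate 5 together, chosen after seeing the data, the calls were 21 (19 higher, 2 lower), 12 and 1. Library totals in place of TMM moved the median of all genes by 0.127 (high-fat) and 0.177 (ketogenic) on the log2 scale and left 7 and 14 calls. The cause of these moves was not tested.

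Replicate numbers are shared between diets, but same-numbered libraries did not deviate together (correlations of -0.404 to 0.418), and 1 of 4, 1 of 4 and 0 of 5 libraries correlated best with their own number. With the replicate block the calls were 6, 8 and 0, and Cdkn1a passed on both diets (log2 fold change 2.48, adjusted p = 0.00644, and 1.96, adjusted p = 0.0201, in edgeR). Ccnb1 had 6 reads over the 4 controls, which limits its fold change.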

Other observations

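Of 17 tested growth and immediate early genes, which respond to growth factors and stress, 3 rose (17.6%) and 1 fell in high-fat livers and 5 rose (29.4%) in ketogenic livers, where 6.95% and 7.47% of all genes were higher. The group as a whole was not tested. Jun, a subunit of AP-1, rose from 16.9 ± 3.59 to 41.3 ± 15.0 and 45.3 ± 3.94 CPM (SD), a log2 fold change of 1.29 ± 0.25 (edgeR adjusted p = 0.00423) and 1.42 ± 0.25 (adjusted p = 0.00179). Junb rose by 0.91 ± 0.22 and 0.83 ± 0.22. Ccn1 and Ankrd1, targets of YAP, rose in ketogenic livers by 1.17 ± 0.20 and 2.44 ± 0.75, and Egr1 by 2.66 ± 0.61. Egfr, the receptor of epidermal growth factor, fell in high-fat livers from 988 ± 334 to 217 ± 113 CPM (-2.19 ± 0.51, adjusted p = 0.0142), and was -1.31 ± 0.50 (adjusted p = 0.105) in ketogenic livers.

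The contaminated control replicate 1, used in no comparison, lay above the range of the other 4 controls in 8 of the 43 genes, below it in 11 and within it in 24. Its Mcm7 was 8.42 CPM and its Top2a 0.465 CPM, both below that range.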
